A study of Mus musculus with 4 samples.

Results

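The 32 genes described here encode enzymes that add or remove acetyl groups on histones, proteins that read the acetyl mark, and the corepressors that carry deacetylases. They were chosen by name and role from a table of 14382 genes, and each of the 32 was found there. They comprise 9 acetyltransferase genes (Ep300, Crebbp, Kat2a, Kat2b, Kat5, Kat6a, Kat6b, Kat7 and Kat8), 12 deacetylase genes (Hdac3, Hdac4, Hdac5, Hdac6, Hdac7, Hdac8, Hdac10, Hdac11, Sirt1, Sirt2, Sirt6 and Sirt7), 4 bromodomain genes (Brd1, Brd2, Brd3 and Brd8) and 7 corepressor genes (Ncor1, Tbl1xr1, Sin3a, Sin3b, Sap30, Rcor1 and Rcor2).

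Polyadenylated RNA was sequenced from mouse embryonic stem cells of genotype Arid1af/f:CreERT2, in which the Arid1a gene is floxed and Cre recombinase becomes active when 4-hydroxytamoxifen (4-OHT) binds it. The control group received ethanol and the other group 1 µM 4-OHT, in each case for 24 hours, with RNA taken 72 hours after treatment from 2 libraries per group. Both groups carry the floxed alleles and the Cre, no group lacks CreERT2, and an effect of active Cre or of 4-OHT itself cannot be told apart from loss of ARID1A. The cells grew on irradiated fibroblast feeders in medium with serum and LIF. Levels are CPM, read counts scaled to a common effective library size, and the reads of each library were worked back from the deposited group means. Within each group, A names the larger library and B the smaller, because the means carry no replicate numbers. No label states that the libraries came from separate cultures, so p-values cover the spread between these libraries, which may be technical.

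ARID1A is a subunit of the BAF complex, which moves nucleosomes and opens chromatin at enhancers. The acetyltransferases p300 and CBP work at the same enhancers and mark them with acetylated lysine 27 of histone H3. Bromodomain proteins of the BET family bind acetylated histones and help transcription, whereas the NCoR, SIN3 and CoREST corepressors bring deacetylases that remove the mark. The comparison asks whether the RNA of these writers, erasers and readers moved when Arid1a was deleted.

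The data give a level for each gene and none for the deleted exons of Arid1a. The targeted gene Arid1a had 517 and 502 CPM in the ethanol libraries and fell to 241 and 213 CPM in the 4-OHT libraries. This was a log2 change of -1.16 (SE 0.0658, limma adjusted p = 7.27e-06). The recovered reads summed to between 6188378 and 7012664 per library, and each of the 32 genes had at least 54 reads in every library. Of 12 embryonic stem cell markers, all were measured, and their summed level was 6079 to 6104 CPM in ethanol and 6324 to 6356 CPM with 4-OHT, with Nanog and Tdgf1 higher, Sox2 and Esrrb lower and 8 not past the threshold. Of 22 fibroblast markers 17 were measured, with a sum of 322 to 326 CPM in ethanol and 339 to 349 CPM with 4-OHT (2 rose and 1 fell). Col1a2 rose from 19.7 and 22.0 CPM to 47.5 and 42.4 CPM, a larger gain than that of the sum. Thy1 also rose, and Col5a2 fell from 33.0 and 31.2 CPM to 19.5 and 23.5 CPM. The defining feeder genes Dcn, Lum, Postn, Prrx1 and Twist2 were looked up and had no row among the 14376 tested genes. Of 8 measured neural progenitor markers 7 rose and Nes fell, of 8 trophoblast markers Cdx2 rose and Krt7 and Krt8 fell, and of 7 endoderm markers none passed in limma, with 2 at an unadjusted p under 0.05 and 2 called higher in edgeR. The part of these other cell states in the results below was not tested. In bulk RNA, fewer cells that express a gene and less of its RNA per cell cannot be told apart.

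Changes in the 32 genes were small. Rcor2 and Brd2 rose with 4-OHT, none of the 32 fell, and 30 did not pass (limma on log2(CPM + 1), Benjamini-Hochberg adjusted p under 0.05 over 14376 genes). Over all genes tested 5.24% were called higher and 4.22% lower, and of the 9778 genes at or above the mean level of the lowest of the 32, 5.33% and 5.42%, so 2 rises and 0 falls among 32 are near the background. A quasi-likelihood test of the recovered reads in edgeR called the same 2 genes higher and also Sin3b and Sirt2 lower, where 8.12% and 7.63% of all genes were called in each direction. DESeq2, which called 2.68% of all genes higher and 2.22% lower (4.9% in all), called Rcor2 and Brd2 and 0 falls, and 10 of the 32 genes had an unadjusted p under 0.05 in limma, as did 23.9% of all genes and 25% of those 9778. The limma log2 changes ran from -0.32 in Sirt2 to 0.28 in Hdac8, with a median of 0.013 against -0.0016 over all genes. No gene of the 32 changed by more than 0.5 on the log2 scale, which 10.4% of all genes did and 5.53% of those 9778. The median size of change was 0.117 in the 32, 0.138 over all genes and 0.108 in those 9778. The typical change was thus no smaller than in those 9778, which share the lowest level of the 32 and are not otherwise matched on level. With a pseudocount of 0.1 the same 2 genes were called, beside 4.24% of all genes higher and 3.49% lower (7.73% in all). With a minimum of 1 for the log2 of the mean CPM, Sin3b and Sirt2 were called lower as in edgeR. This was beside 8.09% of the genes kept called higher and 7.77% lower.

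**Figure D1:**
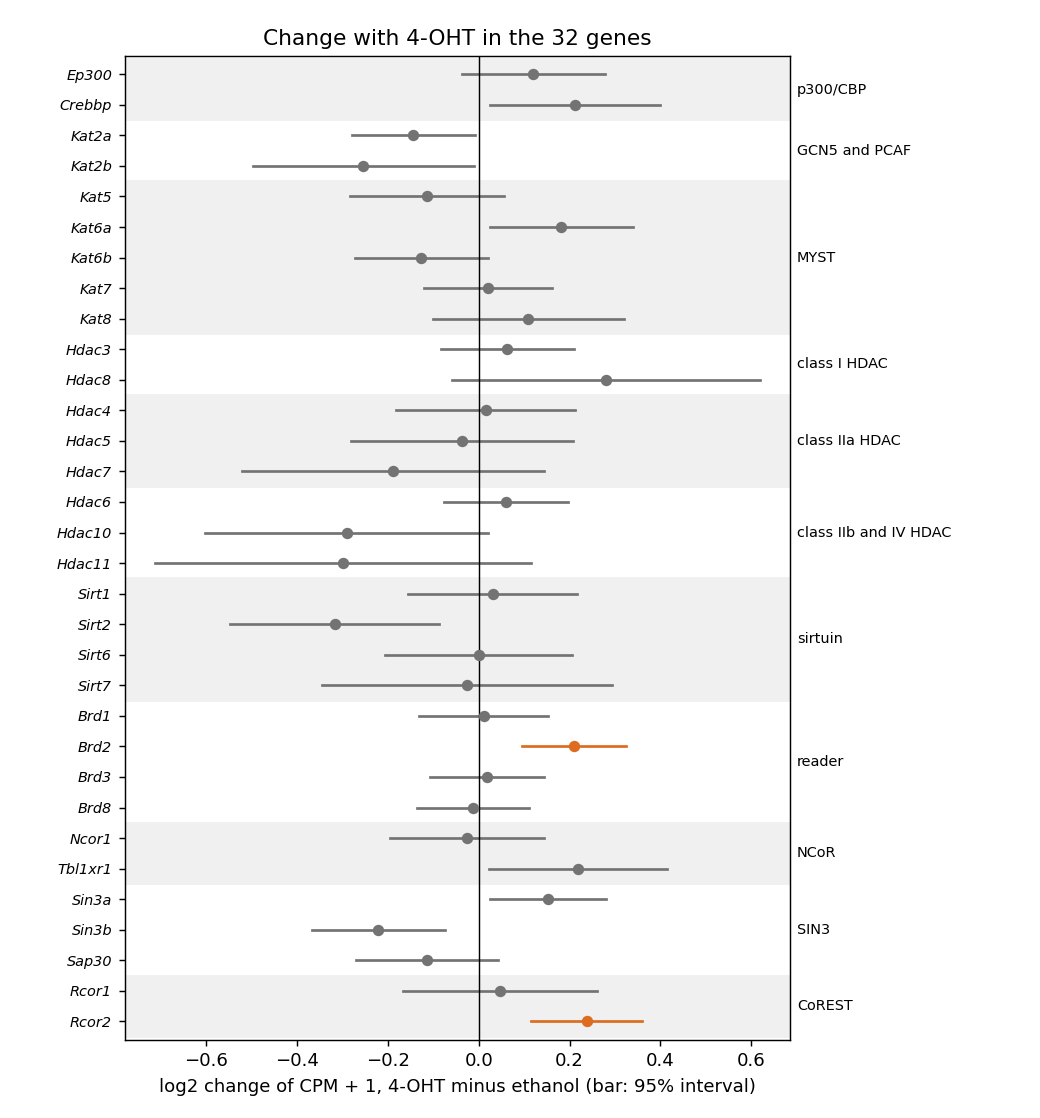
Log2 change of CPM + 1 (4-OHT minus ethanol, horizontal axis) for each of the 32 genes, grouped by role on the right; points are limma estimates and bars their 95% intervals, not adjusted for the number of genes. Rcor2 and Brd2 (orange) passed the adjusted threshold at 0.24 and 0.21, and the other 30 genes (grey) lay between -0.32 and 0.28.

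The precision of these values bounds what could have been missed between these libraries, and need not cover the spread between separate cultures. The 95% interval of the log2 change, not adjusted for the number of genes, lay within 0.5 on both sides of 0 for 27 of the 32 genes. It reached past -0.5 for Hdac7, Hdac10, Hdac11 and Sirt2, and past 0.5 for Hdac8, which apart from Sirt2 are among the genes with the fewest reads. The median distance between the 2 libraries of a group was 0.066 in ethanol and 0.078 with 4-OHT on the log2 scale, against a median size of change of 0.12. Both 4-OHT libraries lay above both ethanol libraries in 10 of the 32 genes and below them in 10, and the groups overlapped in 12. Over all genes the same was seen in 26.4% above and 25.7% below, and in 24.5% and 28.9% of the 9778 genes at or above the lowest level.

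**Figure D2:**
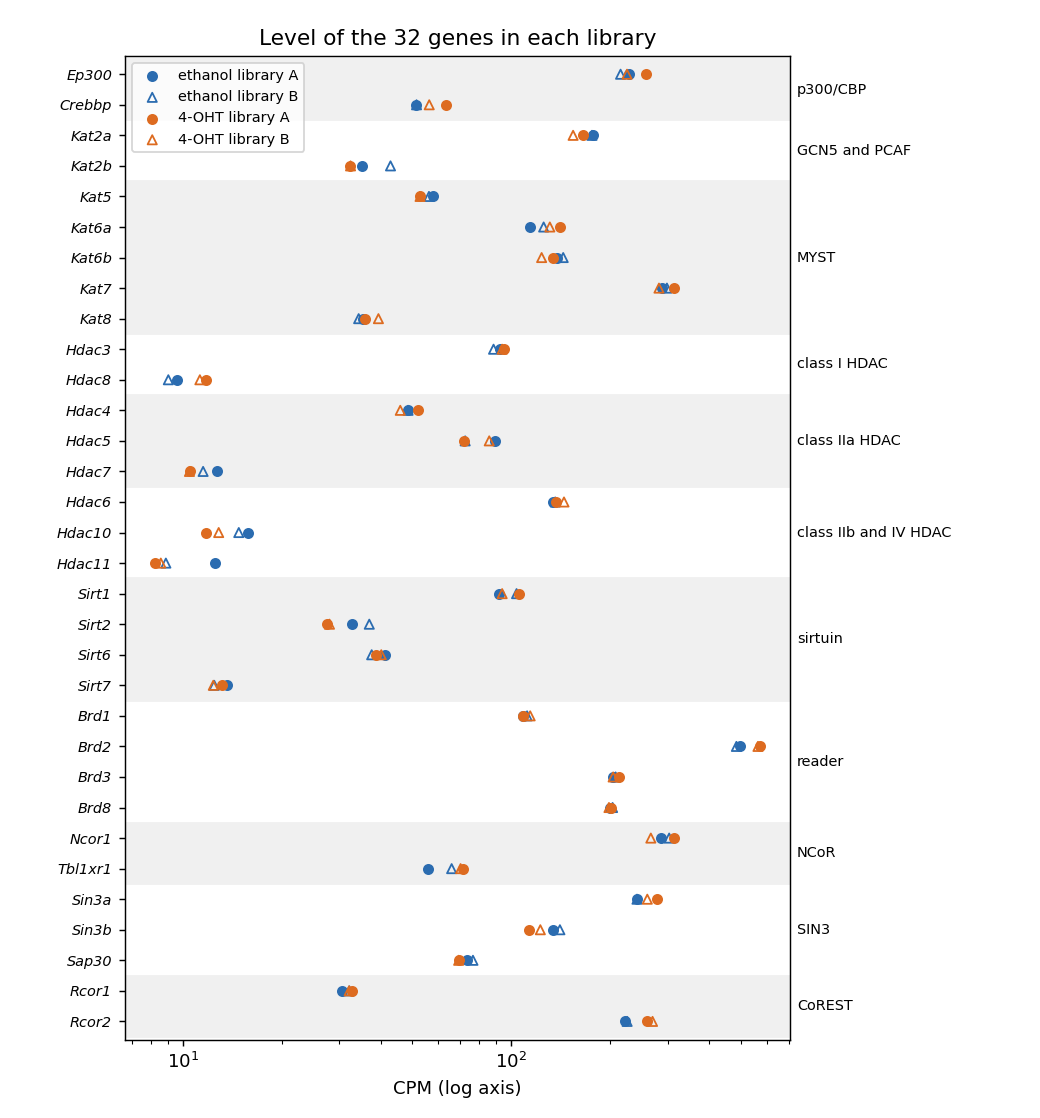
CPM (horizontal log axis) of the 32 genes in the 2 ethanol libraries (blue) and the 2 4-OHT libraries (orange); filled circles are library A and open triangles library B of each group. The orange and blue points stand apart for Brd2 and Rcor2, while for Brd8 and Sirt6 the 4 points interleave.

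The promoters of the genes that rose are shown with those of their nearest relatives among the 32, Rcor1 and Brd3, which did not pass. Each is a RefSeq window (build GRCm38.p6) from 250 bases before to 50 bases after a transcript start, written 5′ to 3′. Brd2 has 3 such starts, and the gene-level reads do not say which of them was used. Capitals mark matches on either strand to any of 9 motifs. They are the GC box with letters GGGCGG, the CCAAT box, the TATA box as TATAAA, the E-box with letters CACGTG, the cyclic AMP response element as TGACGTCA, the ETS site with letters CCGGAAG, the YY1 site as AAGATGGC, the palindromic NRF1 site, and the AP-1 site with letters TGANTCA. No searched motif contains another, and overlapping matches run together in the capitals.
Rcor2, chr19:7267144-7267443, plus strand: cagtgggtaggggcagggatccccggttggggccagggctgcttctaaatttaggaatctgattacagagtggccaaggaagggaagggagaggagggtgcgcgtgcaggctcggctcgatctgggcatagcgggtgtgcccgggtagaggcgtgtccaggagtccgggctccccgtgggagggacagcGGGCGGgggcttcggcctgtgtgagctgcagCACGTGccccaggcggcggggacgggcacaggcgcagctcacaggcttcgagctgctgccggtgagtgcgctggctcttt
Rcor1, chr12:111039117-111039416, plus strand: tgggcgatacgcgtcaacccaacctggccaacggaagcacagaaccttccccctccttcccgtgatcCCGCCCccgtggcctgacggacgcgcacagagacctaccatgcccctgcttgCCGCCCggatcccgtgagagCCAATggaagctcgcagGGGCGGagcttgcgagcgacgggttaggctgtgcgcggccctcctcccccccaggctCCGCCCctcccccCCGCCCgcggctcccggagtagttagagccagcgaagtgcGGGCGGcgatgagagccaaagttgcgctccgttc
Brd2, chr17:34119851-34120150, minus strand: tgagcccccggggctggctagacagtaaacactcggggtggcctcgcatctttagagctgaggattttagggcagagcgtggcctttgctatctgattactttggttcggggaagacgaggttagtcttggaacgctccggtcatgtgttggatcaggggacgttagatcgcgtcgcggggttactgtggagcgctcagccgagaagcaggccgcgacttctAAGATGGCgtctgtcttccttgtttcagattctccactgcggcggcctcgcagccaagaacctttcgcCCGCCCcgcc
Brd2, chr17:34122558-34122857, minus strand: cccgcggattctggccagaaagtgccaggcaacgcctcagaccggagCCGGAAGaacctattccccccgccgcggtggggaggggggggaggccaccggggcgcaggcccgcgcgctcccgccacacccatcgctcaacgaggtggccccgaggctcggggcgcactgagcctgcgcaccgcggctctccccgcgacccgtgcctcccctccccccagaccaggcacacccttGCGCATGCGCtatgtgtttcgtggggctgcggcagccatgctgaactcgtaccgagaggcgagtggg
Brd2, chr17:34121698-34121997, minus strand: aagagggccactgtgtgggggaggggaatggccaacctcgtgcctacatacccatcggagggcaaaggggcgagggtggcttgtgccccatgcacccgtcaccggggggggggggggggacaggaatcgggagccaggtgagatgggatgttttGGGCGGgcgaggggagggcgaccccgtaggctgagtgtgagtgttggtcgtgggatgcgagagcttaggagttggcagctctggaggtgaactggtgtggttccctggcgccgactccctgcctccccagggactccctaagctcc
Brd3, chr2:27475349-27475648, minus strand: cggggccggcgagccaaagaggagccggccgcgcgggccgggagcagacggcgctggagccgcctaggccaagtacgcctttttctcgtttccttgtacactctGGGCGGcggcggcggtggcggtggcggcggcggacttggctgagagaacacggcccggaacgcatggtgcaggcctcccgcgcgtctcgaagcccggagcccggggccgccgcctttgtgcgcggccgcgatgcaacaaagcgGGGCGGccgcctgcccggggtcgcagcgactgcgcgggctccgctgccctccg

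The Rcor2 window holds 1 GC box and 1 E-box, the sequence bound by MYC and USF proteins, and the Rcor1 window holds 6 GC boxes and 1 CCAAT box. The windows of the 3 Brd2 starts hold a GC box with a YY1 site, an ETS site with an NRF1 site, and a GC box alone, and the Brd3 window holds 2 GC boxes. No motif of this set occurs in both Rcor2 and every Brd2 window. RefSeq windows were found for 28 of the 32 genes, 40 windows in all. A GC box stood in 28 of these 40, against 35.7% of all 32851 windows in the table, and a TATA box in 2 of 40, against 13.6%. The E-box of Rcor2 occurs in 7.15% of all windows, the YY1 site in 2.75%, the ETS site in 8.86% and the NRF1 site in 6.23%. The median G and C content was 61.7% in the 40 windows and 52.7% in all, so G- and C-rich motifs have more room to match. An AP-1 site, the motif of FOS and JUN factors, stood in 3 of the 40 windows and in 7.81% of all. A match is a description of letters and not of binding.

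Among the acetyltransferases none passed in limma, edgeR or DESeq2, and 4 of 9 had an unadjusted p under 0.05 in limma, beside the 23.9% of all genes. Ep300, which encodes p300, stood at 228 and 215 CPM in ethanol and at 257 and 225 CPM with 4-OHT. The groups overlapped, with 1 high library in the 4-OHT group, and the log2 change was 0.12 (95% interval -0.038 to 0.28, limma adjusted p = 0.346). Crebbp, which encodes the closely related CBP, stood at 51.3 and 51.5 CPM in ethanol and at 63.4 and 56.3 CPM with 4-OHT. Both 4-OHT libraries were above both ethanol libraries, with a log2 change of 0.21 (95% interval 0.026 to 0.40) that did not pass (limma adjusted p = 0.157). Without 4-OHT library A the log2 change was 0.024 for Ep300 and 0.13 for Crebbp, and without 4-OHT library B it was 0.22 and 0.30.

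The paralogs Kat2a (GCN5) and Kat2b (PCAF), the catalytic subunits of the SAGA and ATAC coactivator complexes, were both below their ethanol values without passing. Kat2a stood at 177 and 176 CPM in ethanol and at 165 and 154 CPM with 4-OHT (log2 change -0.14, limma adjusted p = 0.180). Kat2b stood at 35.2 and 42.9 CPM in ethanol and at 32.4 CPM in both 4-OHT libraries (log2 change -0.25, limma adjusted p = 0.191). The ethanol libraries of Kat2b were farther apart than the 4-OHT libraries, and its change was -0.11 without ethanol library B and -0.39 without ethanol library A, in limma.

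The MYST family acetylates histones H3 and H4 as part of larger complexes. Kat6a (MOZ) stood at 114 and 125 CPM in ethanol and at 141 and 131 CPM with 4-OHT (log2 change 0.18, limma adjusted p = 0.148), and its groups did not overlap. Its paralog Kat6b (MORF) stood at 137 and 144 CPM in ethanol and at 134 and 124 CPM with 4-OHT (log2 change -0.13, limma adjusted p = 0.278). These paralogs thus lay on opposite sides of their ethanol values. Kat7 (HBO1) had the highest level per kilobase of exon of the 9 acetyltransferases, 53.3 CPM per kb over the 4 libraries, with a log2 change of 0.021. Kat5 (TIP60) and Kat8 (MOF) had log2 changes of -0.11 and 0.11, and neither passed.

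Among the 12 deacetylases none passed in limma or DESeq2, Sirt2 alone passed in edgeR, and only Sirt2 had an unadjusted p under 0.05 in limma, beside the 23.9% of all genes. Hdac3, the catalytic subunit of the NCoR complex, stood at 92.5 and 88.3 CPM in ethanol and at 95.1 and 93.8 CPM with 4-OHT. Its log2 change of 0.062 had a 95% interval of -0.084 to 0.21 (limma adjusted p = 0.626). Hdac8, a class I enzyme known for deacetylating cohesin, stood at 9.61 and 9.05 CPM in ethanol and at 11.8 and 11.3 CPM with 4-OHT. This was the largest positive change of the 32, 0.28, on 58 to 83 reads per library, and it did not pass (limma adjusted p = 0.303).

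The class IIa deacetylases Hdac4, Hdac5 and Hdac7 shuttle between nucleus and cytoplasm and bind MEF2 factors. Their log2 changes were 0.015, -0.037 and -0.19. On the log2 scale Hdac5 had the widest gap between 4-OHT libraries of the 32 genes, at 71.6 and 85.7 CPM, beside 89.3 and 72.4 CPM in ethanol. Of the remaining zinc-dependent enzymes, Hdac6, a mainly cytoplasmic tubulin deacetylase, lay at 134 to 136 CPM in ethanol and 137 to 145 CPM with 4-OHT. Hdac10, a polyamine deacetylase, and Hdac11, the only class IV enzyme, had lower values with 4-OHT. Hdac10 stood at 15.8 and 14.8 CPM in ethanol and at 11.8 and 12.9 CPM with 4-OHT (log2 change -0.29, limma adjusted p = 0.242). Hdac11 stood at 12.6 and 8.89 CPM in ethanol and at 8.24 and 8.58 CPM with 4-OHT (log2 change -0.30, limma adjusted p = 0.374), and its change was -0.072 without ethanol library A and -0.53 without ethanol library B.

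Sirtuins are deacetylases that use NAD. Sirt2, which acts on tubulin and on histone H4 lysine 16, stood at 32.7 and 37.0 CPM in ethanol and at 27.4 and 27.97 CPM with 4-OHT. Both 4-OHT libraries were below both ethanol libraries, and the log2 change of -0.32 (SE 0.103) was the largest of the 32 in size in limma, while in edgeR Hdac11 was larger (-0.35 against -0.33). It did not pass in limma (adjusted p = 0.0882), passed in edgeR (adjusted p = 0.0356), and did not pass in DESeq2 (adjusted p = 0.469). Exons of Sirt2 overlap those of Nfkbib on the other strand by 42 bases, and the mean level of Nfkbib was 44.6 CPM in the ethanol group, against 42.4 CPM in the 4-OHT group. Sirt1, Sirt6 and Sirt7 had log2 changes between -0.025 and 0.031, and their groups overlapped.

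Of the bromodomain genes, Brd2 rose and 3 did not pass. Brd2 (ENSMUSG00000024335, chromosome 17, 34112023 to 34122634, minus strand, in the major histocompatibility region) encodes a BET protein that binds acetylated histone H4. It stood at 497 and 484 CPM in ethanol and at 572 and 563 CPM with 4-OHT, and the groups did not overlap. The means were 490.5 ± 9.31 and 567 ± 6.16 CPM (SD, n = 2 per group), a rise of 15.6% and a log2 change of 0.21 (SE 0.0517, limma adjusted p = 0.0315). The adjusted p was 0.00602 in edgeR and 0.0179 in DESeq2. Whether the authors' counting used strand is not given in the sources used here, and 765 exonic bases of Brd2 overlap H2-DMa and CR974462.3 on the other strand. H2-DMa had means of 1.24 CPM (ethanol) and 2.95 CPM (4-OHT), a rise of its own (limma adjusted p = 0.0407) at a level far below that of Brd2. Exons of 10 of the 32 genes overlap an annotated gene on the other strand, Brd2, Sirt2, Sin3a, Ncor1, Sirt1, Kat5, Kat8, Hdac4, Hdac7 and Hdac11, and reads of the partners cannot be told apart from theirs without strand.

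Brd3, the BET gene nearest to Brd2 in this set, stood at 204 and 208 CPM in ethanol and at 213 and 204 CPM with 4-OHT (log2 change 0.017, 95% interval -0.11 to 0.14). Brd1, a scaffold of MYST acetyltransferase complexes, and Brd8, a subunit of the TIP60 complex, had log2 changes of 0.011 and -0.012.

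Among the 7 corepressor genes Rcor2 rose, 0 fell and 6 did not pass in limma. Rcor2 (ENSMUSG00000024968, chromosome 19, 7267325 to 7275225, plus strand) encodes a CoREST protein that joins the demethylase LSD1 to HDAC1 and HDAC2 and is abundant in embryonic stem cells. It stood at 222 and 225 CPM in ethanol and at 259 and 269 CPM with 4-OHT. Both 4-OHT libraries were above both ethanol libraries, with means of 224 ± 2.23 and 264 ± 7.14 CPM (SD, n = 2 per group). The rise was 18.1%, a log2 change of 0.24 (SE 0.0549, limma adjusted p = 0.0231; 0.00375 in edgeR and 0.0412 in DESeq2). No annotated gene overlaps its exons. Its paralog Rcor1 stood at 30.5 and 32.1 CPM in ethanol and at 32.7 and 32.1 CPM with 4-OHT (log2 change 0.047, 95% interval -0.17 to 0.26).

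SIN3A and SIN3B are alternative scaffolds of the SIN3 deacetylase complex, and their genes lay on opposite sides of their ethanol values. Sin3a stood at 242 and 241 CPM in ethanol and at 278 and 259 CPM with 4-OHT (log2 change 0.15, limma adjusted p = 0.139). Sin3b stood at 134 and 141 CPM in ethanol and at 113 and 123 CPM with 4-OHT (log2 change -0.22, SE 0.066). Neither gene had overlapping groups. Sin3b did not pass in limma (adjusted p = 0.0658) and passed in edgeR (adjusted p = 0.0216). Sap30, which links SIN3 to its deacetylases, stood at 73.3 and 76.4 CPM in ethanol and at 69.1 CPM in both 4-OHT libraries (log2 change -0.11, limma adjusted p = 0.369).

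In the NCoR complex, Ncor1, the scaffold that activates HDAC3, stood at 284 and 302 CPM in ethanol and at 312 and 266 CPM with 4-OHT. The 4-OHT libraries were the highest and the lowest of the 4, and the log2 change was -0.026 (95% interval -0.19 to 0.14). Tbl1xr1, an adaptor of the complex, stood at 55.8 and 65.8 CPM in ethanol and at 71.4 and 70.1 CPM with 4-OHT (log2 change 0.22, limma adjusted p = 0.164). Its log2 change was 0.10 without ethanol library A and 0.34 without ethanol library B, in limma.

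The calls rested on small differences between few libraries. In limma 0 of the 32 genes passed when any 1 library was left out, where it called 0% of all 14376 genes without either 4-OHT library, 7.17% without ethanol library A and 7.16% without ethanol library B. In edgeR, Rcor2 and Brd2 passed without either 4-OHT library and not without either ethanol library. The share of all genes that edgeR called was 12% without 4-OHT library A, 9.8% without ethanol library A and 9.82% without ethanol library B. The log2 change of Rcor2 stayed between 0.21 and 0.27, and that of Brd2 between 0.19 and 0.23, when each library was left out in turn in limma and edgeR. The limma adjusted p then ran from 0.0940 to 0.204 for Rcor2 and from 0.142 to 0.246 for Brd2. Sirt2 passed in edgeR without ethanol library A and not without any of the other 3. Without 4-OHT library B edgeR called 7 of the 32 genes, with Ep300, Crebbp, Kat6a and Sin3a called higher beside Rcor2 and Brd2, Sin3b still lower and Sirt2 no longer called, where 13.5% of all genes were called. Kat2b passed as lower in edgeR without ethanol library A (adjusted p = 0.0290), and Tbl1xr1 as higher without ethanol library B (adjusted p = 0.0369).

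Levels between genes are compared per kilobase of exon, using the union of annotated exons. Over the 4 libraries Rcor2 was highest, at 77.2 CPM per kb, followed by Brd2 (67.6), Sap30 (61.1), Kat7 (53.3), Kat2a (48.3) and Sin3a (47.4). Hdac7 was lowest at 1.68 CPM per kb, with Hdac8 at 2.16, Hdac11 at 2.49, Sirt7 at 2.51 and Hdac4 at 3.08. The genes with the lowest level per kilobase were therefore deacetylases, and the 2 genes called higher were the 2 with the highest. Calls also depend on precision, and the SE was 0.0549 for Rcor2 and 0.0517 for Brd2. Hdac8 (0.28, SE 0.153), Tbl1xr1 (0.219, SE 0.0883) and Crebbp (0.213, SE 0.0841) had larger log2 changes than Brd2 (0.209) and did not pass. A link between level and change was not tested. Where part of a long exon union, such as the 15.8 kb of Hdac4, is not transcribed, this measure is too low.

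Paralogs differed in level in every library. Per kilobase, Ep300 exceeded Crebbp by 3.79 to 4.21 times, Kat2a exceeded Kat2b by 5.74 to 7.13 times, and Rcor2 exceeded Rcor1 by 12.6 to 15.1 times. The ratio of Sin3a to Sin3b was 2.46 and 2.34 in ethanol and 3.36 and 2.89 with 4-OHT. The ratio of Kat6a to Kat6b was 1.52 and 1.60 in ethanol and 1.92 and 1.94 with 4-OHT. Which of these 2 is higher in ethanol depends on their exon unions of 9.18 and 16.8 kb. In CPM not divided by length, Kat6a was lower there (114 and 125 against 137 and 144) and higher with 4-OHT (141 and 131 against 134 and 124). The ratio of Brd2 to Brd3 was 2.28 and 2.18 in ethanol and 2.51 and 2.59 with 4-OHT. In these 3 pairs, in Rcor2 over Rcor1 and in Hdac4 over Hdac7 the 4-OHT libraries lay above the ethanol libraries, and in Ep300 over Crebbp they lay below. The groups overlapped in Kat2a over Kat2b, Hdac4 over Hdac5 and Hdac5 over Hdac7. With 2 libraries per group such separation is common: of all single genes, 26.4% lay above and 25.7% below. The share for ratios of other gene pairs was not computed. No test of these ratios was run, and they are given as a description.

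**Figure D3:**
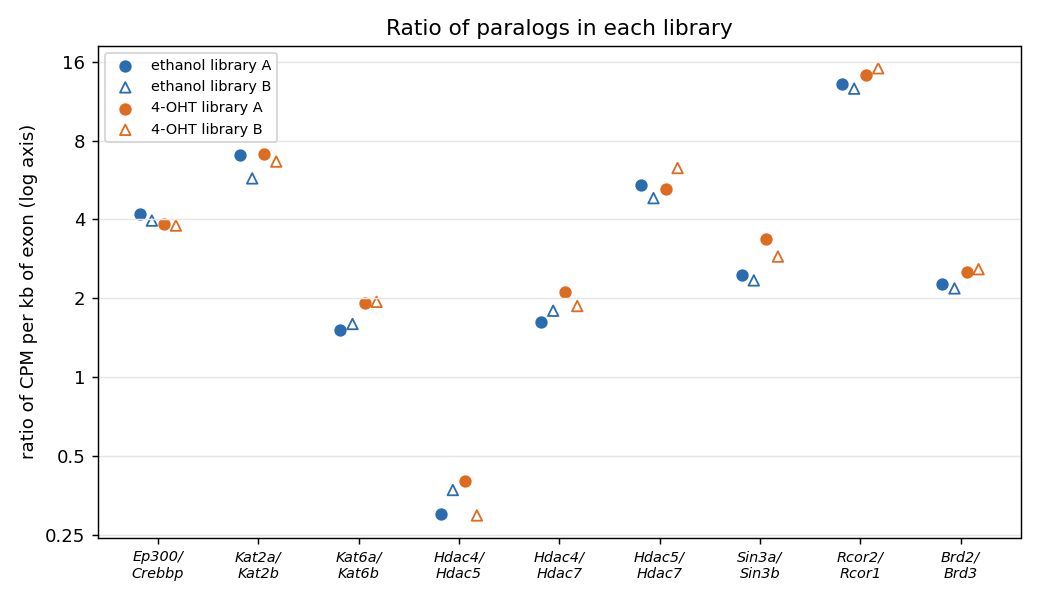
Ratio of CPM per kb of exon between paralogs (vertical log axis) in each of the 2 ethanol (blue) and 2 4-OHT (orange) libraries; filled circles are library A and open triangles library B. Sin3a over Sin3b and Kat6a over Kat6b are higher in both 4-OHT libraries, while Kat2a over Kat2b and Hdac4 over Hdac5 overlap.

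The same pathway was followed in 137 further genes, listed by complex. Of these 8 rose, 4 fell and 125 did not pass in limma, with a median log2 change of 0.014. These 12 of 137 are near the 9.46% of all genes that limma called in either direction. The counts of each list below stand beside limma shares over all genes of 5.24% higher and 4.22% lower. In edgeR 14 were higher and 7 lower, near the 15.8% of all genes called there, and in DESeq2 10 of the 12 passed, without Ing1 (adjusted p = 0.242) and Naprt (adjusted p = 0.0781). Of 45 partner subunits of acetyltransferase complexes, Jade2 rose and 44 did not pass. Jade2, a scaffold of the HBO1 complex, stood at 32.5 and 26.4 CPM in ethanol and at 46.8 and 47.2 CPM with 4-OHT (log2 change 0.66, limma adjusted p = 0.00433).

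Of 13 other acetyltransferases and coactivators, 2 rose and 11 did not pass. Cited2, which encodes a protein that binds p300 and CBP, stood at 60.4 and 54.0 CPM in ethanol and at 102 and 95.05 CPM with 4-OHT (log2 change 0.78, limma adjusted p = 0.00034). Ncoa3, a nuclear receptor coactivator gene, rose from 281 ± 1.5 to 338 ± 15.0 CPM (SD, n = 2 per group; limma adjusted p = 0.0150). Of 17 other readers, Cecr2, the bromodomain partner of an ISWI remodeller, rose from 109 ± 5.55 to 156 ± 13.6 CPM (SD, n = 2 per group; limma adjusted p = 0.00198) and 16 did not pass. These 4 rises were larger than those of Brd2 and Rcor2 on the log2 scale.

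Of 12 genes of the CoREST and CtBP complexes, Phf21a rose, Ctbp2 and Rest fell, and 9 did not pass in limma. Over all genes limma called 5.24% higher and 4.22% lower. Phf21a, which encodes a reader of unmethylated histone H3 in the LSD1 complex, stood at 37.7 and 40.1 CPM in ethanol and at 66.5 and 54.0 CPM with 4-OHT (log2 change 0.61, limma adjusted p = 0.00490). Ctbp2, a corepressor gene, fell from 439 ± 14.7 to 339 ± 10.8 CPM (SD, n = 2 per group; limma adjusted p = 0.00234). Rest, which encodes the repressor of neuronal genes that recruits CoREST, stood at 273 and 278 CPM in ethanol and at 234 and 212 CPM with 4-OHT (log2 change -0.31, limma adjusted p = 0.0120). Kdm1a, which encodes LSD1, was at 269.6 ± 7.83 and 247 ± 7.45 CPM (SD, n = 2 per group) and did not pass (limma adjusted p = 0.207).

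Of 15 SIN3 complex genes, Tet1 and Ing1 rose, 0 fell and 13 did not pass in limma, while edgeR called 6 higher and 0 lower, beside 5.24% of all genes called higher in limma and 8.12% in edgeR. Tet1, a methylcytosine dioxygenase gene whose protein binds SIN3A, rose from 238 ± 1.31 to 324 ± 32.2 CPM (SD, n = 2 per group; limma adjusted p = 0.00336). Ing1, a reader of methylated histone H3, rose from 69.8 ± 4.06 to 84.5 ± 1.37 CPM (SD, n = 2 per group; limma adjusted p = 0.0424). Of 3 measured genes of MiDAC, a mitotic deacetylase complex, Trerf1 rose from 29.0 ± 4.6 to 50.8 ± 2.67 CPM (SD, n = 2 per group; limma adjusted p = 0.00193) and 2 did not pass. Of 6 NCoR partner genes none passed in limma or edgeR (1 at an unadjusted p under 0.05 in limma).

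Of 6 other deacetylase genes none passed in limma or edgeR (1 at an unadjusted p under 0.05 in limma). Hdac1 stood at 99.5 and 88.0 CPM in ethanol and at 86.8 and 90.4 CPM with 4-OHT (log2 change -0.078, limma adjusted p = 0.598). Hdac2 stood at 190.5 and 188 CPM in ethanol and at 170.1 and 173 CPM with 4-OHT (log2 change -0.14, limma adjusted p = 0.168). Of 13 partners of class IIa deacetylases, MEF2 factors and the kinases that export the enzymes, none passed in limma (3 at an unadjusted p under 0.05) and edgeR called 2 lower. Among 9 genes that supply acetyl-CoA or NAD, Pdha1 and Naprt fell and 7 did not pass. Pdha1, a subunit gene of pyruvate dehydrogenase, fell from 449.6 ± 12.6 to 359.8 ± 0.566 CPM, and Naprt, which makes NAD from nicotinic acid, fell from 54.7 ± 3.27 to 40.6 ± 3.91 CPM (SD, n = 2 per group; limma adjusted p = 0.00416 and 0.0194).

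**Figure D4:**
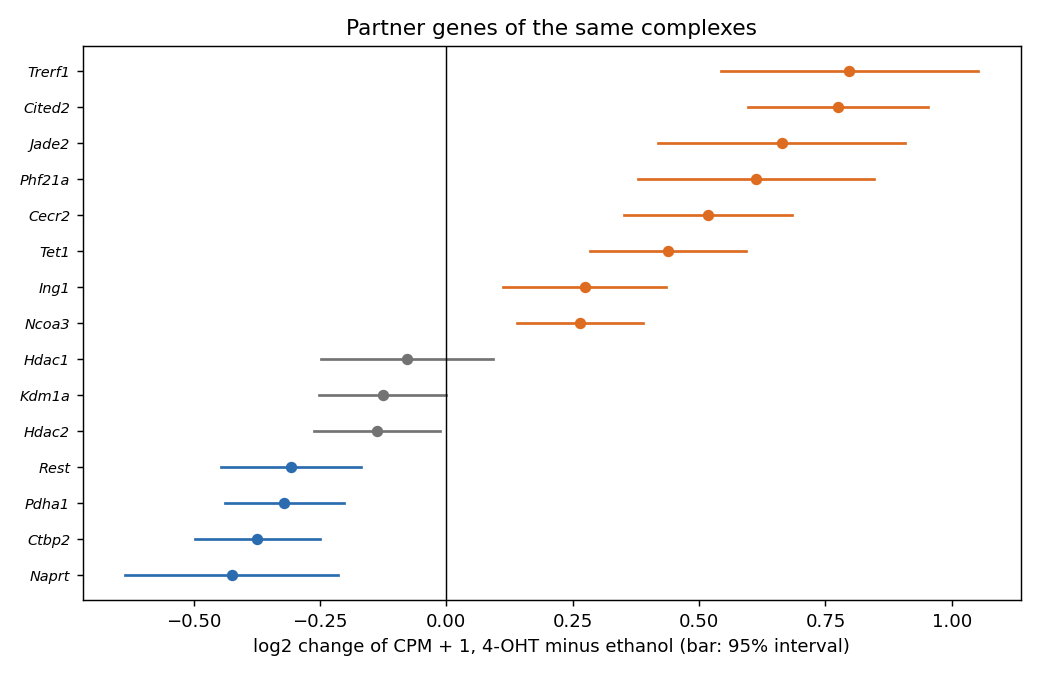
Log2 change of CPM + 1 (4-OHT minus ethanol, horizontal axis) with 95% intervals (bars, limma, not adjusted for the number of genes) for the partner genes named in the text. Rises (orange) run from Ncoa3 at 0.26 to Trerf1 at 0.80, falls (blue) from Rest at -0.31 to Naprt at -0.42, and Hdac1, Kdm1a and Hdac2 (grey) did not pass.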

How the data were processed

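PolyA RNA was measured in 2 ethanol and 2 4-OHT libraries. The build was mm10 and the tools included HISAT2, Trimmomatic, FastQC and edgeR, per the submitters' processing notes, which give no versions. The sources used here do not state how reads were assigned to genes, with which annotation and whether by strand. The labels' protocols name 2 library kits, 1 of them stranded, without saying which library had which, and the part of the kit was not tested. Per the file headers, the authors deposited group means of CPM, an adjusted p-value and a log2 fold change. The authors' deposited p-value and log2 columns were not used: when rows are sorted by Entrez number as text, the p falls at 0 of 14381 steps, so it is out of register with the genes.

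Each mean CPM is a sum of whole reads times 1 step per library. With these steps 100% of values in both deposited columns came out whole within rounding, 99.7% and 99.95% with 1 possible pair of read numbers. Of 3000 values moved at random, 0 came out whole. These were drawn only from levels below those of Brd2 and Rcor2, so this control does not cover genes at such levels. Several pairs were possible for 41 ethanol and 7 4-OHT values. For 35 and 7 of these the only pair with similar reads in both libraries was kept, which assumes that the libraries are alike. Of 14382 genes 6 were left unsettled and 14376 tested. The ethanol libraries had effective sizes of 6451759 (A) and 6410293 (B) reads and the 4-OHT libraries 7035534 (A) and 6291532 (B), and 3 reads, the limit that a count of 0 allows, are 0.426 to 0.477 CPM (counting error only).

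The test was limma-trend 3.58.1 (R 4.3.3) on log2(CPM + 1), two-sided, without a filter, adjusted by Benjamini-Hochberg over all tested genes. Alternatives were edgeR 4.0.16 (quasi-likelihood, filterByExpr) and DESeq2 1.42.0 on the recovered reads, DESeq2 size factors and a pseudocount of 0.1. Further ones were a minimum of 1 for the log2 of the mean CPM, and leaving out each library. Every one of the 32 genes is described. From each list the up to 4 called genes with the largest change were named, with Hdac1, Hdac2, Kdm1a and Arid1a whatever their result; some items are not reported here. The 32 genes and the lists were chosen with earlier results of these data known. Of rows that share a symbol, the one with that symbol in RefSeq was used. Gene positions and exons are from Gencode M21 (mm10), 1-based.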

Additional observations from a re-analysis of the deposited data

How the results depend on the processing

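Rcor2 and Brd2 were called higher in limma, edgeR and DESeq2, with DESeq2 size factors and with a pseudocount of 0.1. They were also called higher with a minimum of 1 for the log2 of the mean CPM. Of the 32 genes, 2 were called lower in edgeR and 2 with the minimum level (Sin3b and Sirt2 in both), against 0 in the test reported. Leaving out each library, in limma and edgeR, gave 0 to 6 of the 32 genes higher and 0 to 2 lower. Over all genes, 1360 calls became 2042 in edgeR and 704 in DESeq2, and 0 to 1782 when each library was left out. The 12 calls among the further pathway genes became 21 in edgeR, 10 in DESeq2, 19 with the minimum level and 0 to 21 when a library was left out. In limma the counts fell to 0 without either 4-OHT library, where the lone 4-OHT library is assumed to vary like the ethanol pair, and the cause was not tested.

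Signs changed only among genes that did not pass, when a library was left out in limma or edgeR. The log2 change then ran from -0.056 to 0.097 for Kat7, -0.0765 to 0.11 for Hdac4, -0.19 to 0.12 for Hdac5, -0.059 to 0.13 for Sirt1, -0.071 to 0.068 for Sirt6, -0.088 to 0.040 for Sirt7, -0.028 to 0.050 for Brd1, -0.014 to 0.048 for Brd3, -0.027 to 0.0027 for Brd8 and -0.14 to 0.090 for Ncor1. No paired analysis was possible because the deposited group means carry no replicate numbers. With 54 to 4021 reads per gene and library, the 95% interval of a log2 change reached up to 0.41 on either side.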
